A study of Mus musculus with 2 samples.

Results

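Peaks of DLX2 around 10 cadherin genes were examined in cells of the maxillary process, the embryonic outgrowth that builds most of the upper jaw. DLX2 is a homeodomain transcription factor that patterns the facial processes. The genes were *Cdh2*, *Cdh4*, *Cdh6*, *Cdh8*, *Cdh10*, *Cdh11*, *Cdh12*, *Cdh13*, *Cdh18* and *Cdh20*, out of 21757 protein-coding genes in the annotation. *Cdh4* and *Cdh13* were chosen by their high counts of sites found in both replicates, so those counts are a description here and no test was made of them. The other 8 genes are members of the same family. CUT&Tag, in which an antibody guides a transposase to cut and tag the DNA around its target, was done with an anti-DLX2 antibody on 2 replicates of C57BL/6 wildtype mice at E12.5. The labels do not say how many embryos went into a replicate, and no control library was used here, so no condition could be compared with another. The window of a gene was its RefSeq extent in GRCm38 (mm10) with 100 kb on either side, and the 10 windows added up to 7.06 Mb. They held 75 of the 28061 peaks of replicate 1 and 169 of the 62093 peaks of replicate 2. Where a replicate 1 peak and a replicate 2 peak overlapped by 1 bp or more, the stretch they had in common was counted as a shared region, and 46 of the 10921 shared regions of the series lay in these windows. The paper reports fewer peaks for each replicate, and fewer common to both, than the deposited lists counted here. The shared regions are therefore not the set of sites that the paper describes.

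Cadherins are calcium-dependent adhesion proteins of the cell surface. The extracellular repeats of a classical cadherin bind the same or a related cadherin on the next cell, and its cytoplasmic tail binds catenins, which link it to actin. In the face, neural crest cells change the cadherins they carry as they leave the neural tube, migrate and condense into mesenchyme. *Cdh2* (N-cadherin) and *Cdh4* (R-cadherin) are type I classical cadherins. *Cdh13* encodes T-cadherin, which has no cytoplasmic tail and is held in the membrane by a lipid anchor. *Cdh6*, *Cdh8*, *Cdh10*, *Cdh11*, *Cdh12*, *Cdh18* and *Cdh20* are type II cadherins, and *Cdh11* is known as the cadherin of mesenchyme and osteoblasts.

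Most of the shared regions lay at *Cdh4* and *Cdh13*. The *Cdh4* window held 19 and the *Cdh13* window held 18, together 80.4% of the 46 regions in 28.9% of the windowed sequence. The other 8 genes held 9 shared regions in 5.02 Mb, or 0.179 per 100 kb (95% exact Poisson interval 0.0820 to 0.341), against 1.81 per 100 kb for *Cdh4* and *Cdh13* together (interval 1.28 to 2.50). A shared region was found in the window of 6 of the 10 members, whereas 60.3% of all protein-coding genes and 74.4% of the protein-coding genes of at least 100 kb had one. Inside the gene itself, 5 of the 10 members held a shared region, against 53.1% of the protein-coding genes of at least 100 kb. The share of members with a shared region was thus near or below the background, and *Cdh4* and *Cdh13* differed from the other 8 members in the number per gene, which is what they were chosen by. Intervals here cover counting error only, and neighbouring regions are not independent.

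The order of the genes by shared regions per 100 kb of window was led by *Cdh4*, with 2.89 (interval 1.74 to 4.52). *Cdh13* came next with 1.30 (interval 0.770 to 2.05), and *Cdh6* followed with 0.863 (interval 0.178 to 2.52). *Cdh2* had 0.476 (interval 0.0576 to 1.72), *Cdh10* 0.252 (interval 0.00637 to 1.40) and *Cdh12* 0.222 (interval 0.0458 to 0.650). The intervals of neighbours in this order overlapped, *Cdh4* and *Cdh13* included. Since the first of these genes were chosen by their counts, the order itself is not tested. For the genes with 0 shared regions, the same kind of interval reached 0.327 per 100 kb for *Cdh18* and 0.622 for *Cdh8*. It reached 0.864 for *Cdh20* and 1.04 for *Cdh11*.

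**Figure D1:**
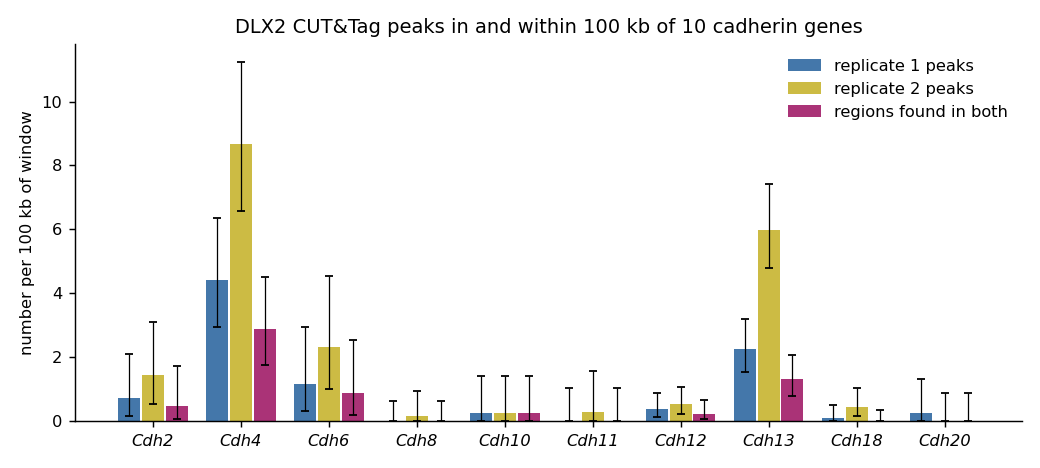
Peaks of replicate 1, peaks of replicate 2 and shared regions per 100 kb in the window of each cadherin gene, with bars from 0 and 95% exact Poisson intervals. *Cdh4* and *Cdh13* stand highest for all 3 counts, with shared rates of 2.89 and 1.30 per 100 kb.

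The peaks of each replicate, from which the shared regions are made, were also counted alone. At *Cdh4* there were 29 peaks in replicate 1 and 57 in replicate 2. At *Cdh13* there were 31 peaks in replicate 1 and 83 in replicate 2. Per 100 kb of window, replicate 1 had 4.41 peaks at *Cdh4* and 2.24 at *Cdh13*, and replicate 2 had 8.68 at *Cdh4* and 5.99 at *Cdh13*. The other 8 genes together had 15 peaks in replicate 1, or 0.299 per 100 kb, and 29 in replicate 2, or 0.578 per 100 kb. A gene with many shared regions must have many peaks in each replicate, so these counts are no independent support for the order.

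A peak is called met where it overlaps one of the other replicate. In the 10 windows 61.3% of the replicate 1 peaks were met (95% exact binomial interval 49.4 to 72.4%), against 38.9% of all replicate 1 peaks. In the other direction, 27.2% of the peaks of replicate 2 overlapped one of replicate 1 (interval 20.7 to 34.6%), against 17.2% of all replicate 2 peaks. Of these peaks, 60 of the 75 in replicate 1 and 140 of the 169 in replicate 2 lay at *Cdh4* and *Cdh13*. Recurrence is part of what those genes were chosen by, so nothing is read from the shares of the 10 windows. For the other 8 genes, 9 of 15 replicate 1 peaks (60.0%, interval 32.3 to 83.7%) and 9 of 29 replicate 2 peaks (31.0%, interval 15.3 to 50.8%) were met. At *Cdh4* and *Cdh13* together the shares were 61.7% and 26.4%, and they were not compared with those of the other 8 genes.

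*Cdh4*, whose product R-cadherin is best known from retina, brain and kidney, spans 457 kb of chromosome 2, from 179442423 to 179899377. Of its 19 shared regions, 13 lay inside the gene, 4 on the low-coordinate side and 2 on the high-coordinate side. Positions are given from the low-coordinate end, since the annotation used gives no strand, exons or introns for this gene. The annotated extent also takes in predicted transcripts.

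Inside *Cdh4* the regions were spread along most of the gene. A first group lay at 28.0, 32.7, 49.0 and 57.4 kb, with folds in that order of 3.87, 7.05, 7.97 and 5.86 in replicate 1 and 4.16, 6.23, 5.37 and 4.40 in replicate 2. Fold is the enrichment of fragments at the summit over the local background of the same library. In the middle of the gene, regions at 158, 194, 224 and 229 kb had folds of 4.69, 3.92, 4.33 and 5.74 in replicate 1 and 5.56, 3.62, 3.45 and 4.63 in replicate 2. Those at 301, 317, 363, 371 and 448 kb had folds of 5.20, 5.26, 4.62, 6.78 and 5.33 in replicate 1 and 3.55, 3.89, 4.32, 5.15 and 4.06 in replicate 2. There were 7 on the low-coordinate side of the midpoint of the gene and 6 on the other, and of 10 equal parts of the gene 9 held at least 1. Neighbouring regions were a median of 22.7 kb apart, with gaps from 4.70 to 100.4 kb.

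The strongest shared region inside *Cdh4*, by its lower fold, lay at chr2:179475031-179475247, with 11 fragments at the summit in replicate 1 and 17 in replicate 2. A stronger one lay outside, at chr2:179983720-179984141, 84.3 kb beyond the high-coordinate end of the gene. Its fold was 10.2 in replicate 1, on 19 fragments, and 9.26 in replicate 2, on 25 fragments, and it was the highest by lower fold of all 46 regions. It is thus in the *Cdh4* window without being nearest to *Cdh4*, since the coding gene *Taf4*, a subunit of the general transcription factor TFIID, lies between them. A second region of this flank, 70.8 kb from *Cdh4*, lay inside *Taf4*, with folds of 5.01 and 5.47. On the low-coordinate side a region 2.37 kb from the gene, at chr2:179439755-179440048, reached 8.42-fold enrichment in the first replicate and 4.63 in the second. The region nearest the edge of the window lay 98.6 kb out, with folds of 3.52 and 4.76, and the first one left out lay 148 kb from the gene, with folds of 3.94 and 6.15.

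In the high-coordinate flank of *Cdh4*, replicate 2 had 13 peaks, of which 2 were met, and replicate 1 had 2 peaks, both of them met. This flank takes in at least part of *Taf4*, and its peaks were not divided between the 2 genes. Over the whole window, 38 replicate 2 peaks and 10 replicate 1 peaks were not met. Their median fold was 3.90 in replicate 2 and 3.73 in replicate 1, below the 4.63 and 5.20 of the met peaks of those replicates.

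*Cdh13* spans 1185 kb of chromosome 8, from 118140017 to 119324929, and is the longest of the 10 genes. T-cadherin, its product, is known for its place on vascular cells and neurons and as a receptor for adiponectin. The gene held 14 shared regions and its flanks held 2 on each side. Again no strand or exons were given for it in the annotation used. The flanking regions lay 63.5 and 7.07 kb out on the low-coordinate side and 45.3 and 83.0 kb out on the other, with lower folds from 3.6 to 4.33. The outermost of them overlapped in only 10 bp and lay in *Mlycd*, the gene of malonyl-CoA decarboxylase, and the first region left out was 126 kb from *Cdh13*, with folds of 5.04 and 3.46.

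The shared regions of *Cdh13* were gathered in its high-coordinate part. Near the low-coordinate end, 2 regions lay at 86.1 and 111 kb, with folds of 6.91 and 5.54 in replicate 1 and 6.30 and 4.48 in replicate 2. No shared region followed over the next 617 kb, which is 52.1% of the gene. Then 12 shared regions lay in the last 457 kb. Divided at its midpoint, *Cdh13* had 12 regions on the high-coordinate side and 2 on the other, whereas *Cdh4* had 6 and 7.

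The first cluster after the gap ran from 728 to 789.8 kb, with 5 regions whose folds, in order, were 6.84, 5.78, 4.91, 5.48 and 6.62 in replicate 1 and 6.36, 6.37, 4.28, 5.47 and 5.47 in replicate 2. The first of these, at chr8:118868158-118868424 and chr8:118872742-118873072, were only 4.62 kb apart, the closest pair in the gene. A second cluster, at 883, 892, 923, 945 and 959.8 kb, had folds of 5.05, 6.02, 5.85, 5.96 and 6.70 in replicate 1 and 4.54, 5.31, 6.55, 4.20 and 5.90 in replicate 2. The last regions, at 1136 and 1169.5 kb, were the strongest of the gene in both replicates, at 7.73 and 7.30 in replicate 1 and at 7.09 and 7.93 in replicate 2. They lay at chr8:119275450-119275789 and chr8:119309376-119309737, near the high-coordinate end. The summits of the replicates coincided within a median of 36 bp at *Cdh13* and 89 bp at *Cdh4*, against 63 bp over all shared regions.

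The long gap in *Cdh13* held no shared region but did hold peaks of both replicates, though fewer per 100 kb than the part after it. It held 8 peaks of replicate 1 and 31 of replicate 2, and none of them met a peak of the other replicate. In the part of the gene after the gap, all peaks came to 3.28 per 100 kb in replicate 1 and 8.76 in replicate 2. In the gap the same rates were 1.30 and 5.02. Replicate 1 had no peak between those at 150.4 and 405.4 kb, so no shared region could lie there. The gap holds no met peak by its definition, so its peaks are also set beside the other unmet peaks. Unmet peaks came to 1.30 per 100 kb of the gap in replicate 1 and 5.02 in replicate 2, and to 0.657 and 6.13 per 100 kb in the part of the gene after it. The median fold of the unmet peaks was 4.02 and 3.90 in the gap, and 4.08 and 4.07 over the whole window. Unmet peaks were thus denser in the gap in replicate 1 and sparser there in replicate 2, with similar folds.

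**Figure D2:**
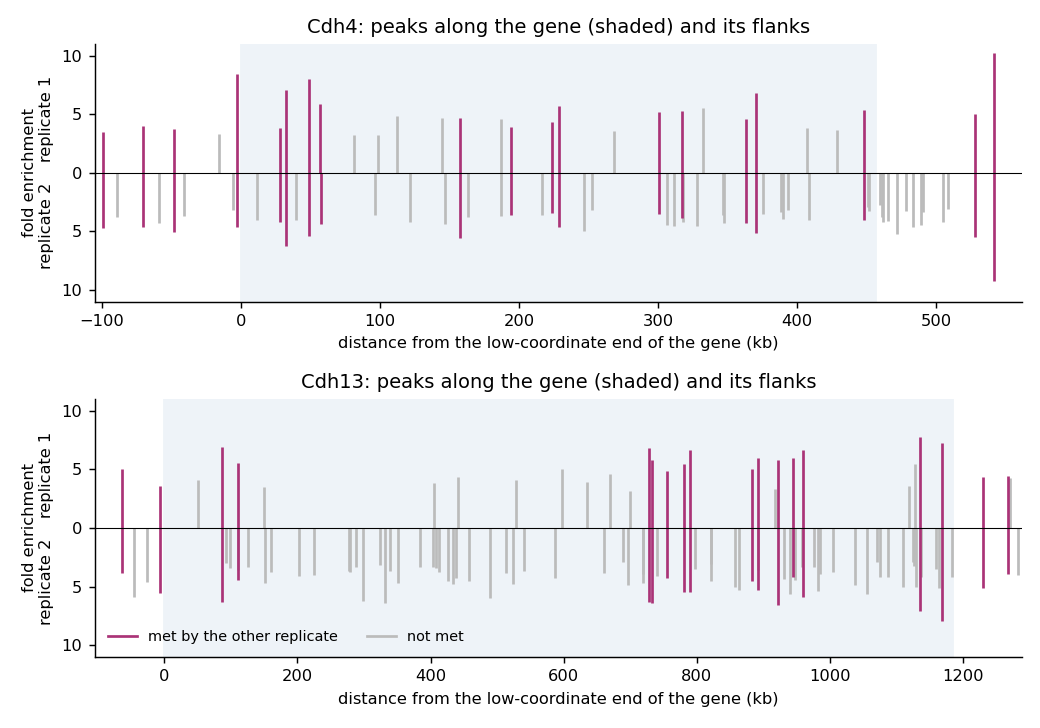
Peaks along *Cdh4* (upper panel) and *Cdh13* (lower panel), by distance from the low-coordinate end of the gene in kb, with the gene shaded and fold enrichment drawn upwards for replicate 1 and downwards for replicate 2. Purple lines are peaks met by the other replicate and grey lines are not. Purple lines run along *Cdh4* with a longest gap of 100.4 kb, whereas *Cdh13* has 12 of its 14 inner shared regions after a gap of 617 kb.

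The shared regions of the members were of ordinary strength for the series. Their median lower fold, the smaller of the folds of the replicates, was 4.58, against 4.51 over all 10921 shared regions. A lower fold of at least 5 was reached by 20 of the 46 regions (43.5%), against 35.1% of all shared regions. *Cdh13* had 10 such regions of 18 and *Cdh4* had 5 of 19. The median lower fold was higher at *Cdh13*, at 5.39, than at *Cdh4*, at 4.32, while *Cdh4* had more regions per 100 kb. Fold also depends on the local background. Its median at the met peaks of replicates 1 and 2 was 0.733 and 1.93 at *Cdh4*, and 0.652 and 1.66 at *Cdh13*. Over all 10921 shared regions the median fold was 5.05 in replicate 1 and 5.12 in replicate 2. At the *Cdh4* regions the median fold was 5.20 in replicate 1 and 4.63 in replicate 2, and at the *Cdh13* regions 5.81 and 5.47. These differences were not tested. Behind these folds stood a median of 8 fragments in replicate 1 and 13 in replicate 2 at *Cdh4*, and 9 and 13.5 at *Cdh13*.

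**Figure D3:**
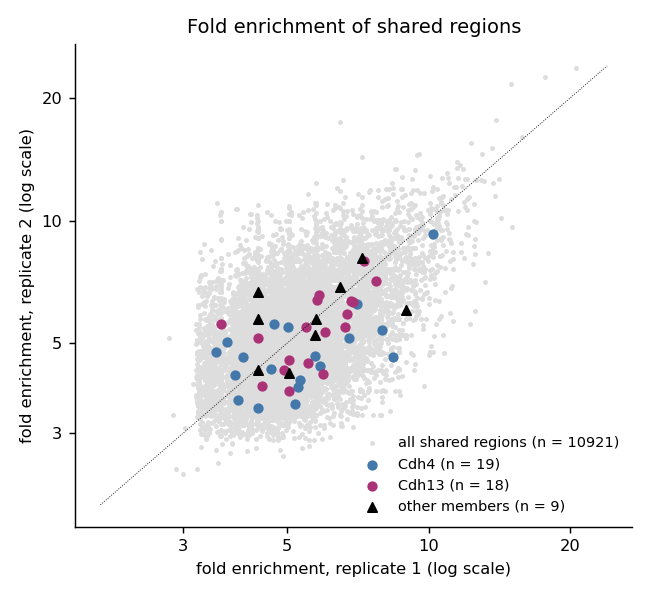
Fold enrichment in replicate 1 (x axis) and replicate 2 (y axis) on log scales for all 10921 shared regions (grey) and for those of *Cdh4*, *Cdh13* and the other members. The member regions lie within the grey cloud, with lower folds from 3.45 to 9.26, and the dotted line marks equal fold. The median fold in replicates 1 and 2 was 5.20 and 4.63 at *Cdh4*, and 5.81 and 5.47 at *Cdh13*. Over all shared regions the median fold was 5.05 in replicate 1 and 5.12 in replicate 2.

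Promoters of the members were looked at next. The RefSeq promoter table (GRCm38.p6) held none for *Cdh2*, *Cdh4*, *Cdh11* and *Cdh13*, so their promoters were not examined. It held 1 for each of *Cdh6*, *Cdh8*, *Cdh10*, *Cdh12*, *Cdh18* and *Cdh20*. None of these 6 promoters, taken from 250 bases before to 50 after the start, was touched by a peak of either replicate. Few promoters were: of 27025 in the table, 1 for each gene, 0.818% were touched by a replicate 1 peak, 2.7% by a replicate 2 peak and 0.174% by a shared region. The nearest peak lay 2.62 kb away, at *Cdh18* in replicate 2, and the nearest shared region 20.3 kb away, at *Cdh6*. The listed starts of *Cdh12* and *Cdh18* lay 663 and 488 kb inside the annotated extents, and other starts were not examined. The 250 bases before the start are shown for *Cdh6*, whose promoter had the nearest shared region, for *Cdh10*, with a shared region inside the gene, and for *Cdh20*, with the only promoter that held a homeodomain core. They lie at chr15:13173676-13173925 on the minus strand, at chr15:18820079-18820328 on the plus strand and at chr1:104768270-104768519 on the plus strand. Capitals mark the motifs that were searched on both strands, namely the homeodomain cores TAATTA and TAATTG, the RUNX core TGTGGT and the E-box CACGTG.
Cdh6: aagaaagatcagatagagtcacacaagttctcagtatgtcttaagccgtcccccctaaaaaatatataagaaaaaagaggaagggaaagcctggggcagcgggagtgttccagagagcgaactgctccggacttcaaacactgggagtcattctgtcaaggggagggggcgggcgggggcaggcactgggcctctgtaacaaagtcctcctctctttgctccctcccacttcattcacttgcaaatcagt
Cdh10: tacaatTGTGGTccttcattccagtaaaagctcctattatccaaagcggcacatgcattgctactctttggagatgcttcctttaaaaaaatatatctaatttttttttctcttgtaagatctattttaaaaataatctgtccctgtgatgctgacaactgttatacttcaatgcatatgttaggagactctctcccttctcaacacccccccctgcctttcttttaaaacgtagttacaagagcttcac
Cdh20: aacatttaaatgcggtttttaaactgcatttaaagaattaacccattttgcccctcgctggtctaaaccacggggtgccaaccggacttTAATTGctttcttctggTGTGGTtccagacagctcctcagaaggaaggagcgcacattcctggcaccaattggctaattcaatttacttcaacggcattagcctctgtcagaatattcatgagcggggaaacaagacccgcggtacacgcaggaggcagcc

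*Cdh20* held 1 TAATTG and 1 TGTGGT and *Cdh10* held 1 TGTGGT, while *Cdh6*, *Cdh8*, *Cdh12* and *Cdh18* held none of the 4 motifs in these 250 bases. TAATTA was present in 4.90% of the 27025 genes' promoters of the same length, TAATTG in 7.34%, TGTGGT in 14.2% and CACGTG in 6.05%. Such a match is a description of the letters and not a site. The promoter with both a homeodomain core and a RUNX core, that of *Cdh20*, was 225 kb from the nearest replicate 1 peak and 239 kb from the nearest replicate 2 peak.

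*Cdh2*, whose product N-cadherin is carried by migrating and condensing mesenchyme, had 2 shared regions, from 3 peaks of the first replicate and 6 of the second. The one with the higher lower fold lay inside the gene on chromosome 18, from 16707853 to 16708010, with folds of 5.72 and 5.24. *Cdh2* thus had 1 shared region in its 220 kb and 1 in its flank.

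Among the type II cadherins, *Cdh6*, which marks neural crest and kidney progenitors, had the most shared regions per 100 kb. Its window held 3, the same number as the far longer window of *Cdh12*, and all of them lay outside the gene, from 4 peaks of the first replicate and 8 of the second. The region with the highest lower fold lay at chr15:13001289-13001450, 27.2 kb from the end of the gene that is farther from its listed start, and its folds were 6.49 and 6.86. Another, at chr15:13194208-13194393, lay 20.6 kb upstream of that start and was enriched 8.97-fold in the first replicate and 6.04-fold in the second.

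*Cdh12*, a cadherin of the nervous system, had 3 shared regions in its 1149.5 kb. The gene held 4 peaks of the first replicate and 6 of the second, and its window 5 and 7. Its highest shared region, at chr15:21007728-21008086, had folds of 7.21 and 8.09. All 3 lay between 104 and 223 kb upstream of the listed *Cdh12* start, inside the part of the annotated extent that precedes it. A lone replicate 1 peak with a fold of 8.65, higher than those of the shared regions, was not met by replicate 2. *Cdh10*, also a neural cadherin, had 1 peak in each replicate, and they overlapped at chr15:18879815-18879922, 59.5 kb downstream of its start, with folds of 5.77 and 5.71.

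The remaining members, *Cdh20* with its homeodomain core in the promoter printed above among them, had no shared region. *Cdh18* had 1 peak in replicate 1 and 5 in replicate 2 over a window of 1129 kb, and the highest, in replicate 2, had a fold of 7.14. *Cdh8* had 0 peaks in replicate 1 and 1 in replicate 2. *Cdh11*, the mesenchymal cadherin, also had 0 and 1, and its only peak, at chr8:102590864-102591026, lay outside the gene with a fold of 3.81. *Cdh20* had 1 peak in replicate 1 and 0 in replicate 2. At *Cdh8*, *Cdh11* and *Cdh20* the nearest shared region was 2746, 906 and 140.3 kb from the gene.

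The surroundings of the genes were then compared, to see whether the shared regions stopped at the genes. At *Cdh4* there were 2.84 shared regions per 100 kb in the gene (interval 1.51 to 4.86), 3.00 in the 100 kb flanks (interval 1.1 to 6.53) and 1.35 in the 1 Mb beyond each flank (interval 0.890 to 1.96). At *Cdh13* the values were 1.18 in the gene (interval 0.646 to 1.98), 2.0 in the flanks (interval 0.545 to 5.12) and 2.2 in the 1 Mb beyond (interval 1.60 to 2.95). At *Cdh13* the gene had the lowest rate of the 3 and at *Cdh4* the 1 Mb beyond did, though in both the intervals of gene and surroundings overlapped. The other 8 genes had between 0 and 0.200 shared regions per 100 kb in the 1 Mb beyond their flanks. The autosomes as a whole had 0.440 per 100 kb, chromosome 2 had 0.464 and chromosome 8 had 0.556, so the neighbourhoods of *Cdh4* and *Cdh13* were above it and those of the other 8 below it, with an interval that reached it at *Cdh6* (0.0545 to 0.512). The neighbourhoods of *Cdh10*, *Cdh12* and *Cdh18*, on chromosome 15, overlap in part.

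**Figure D4:**
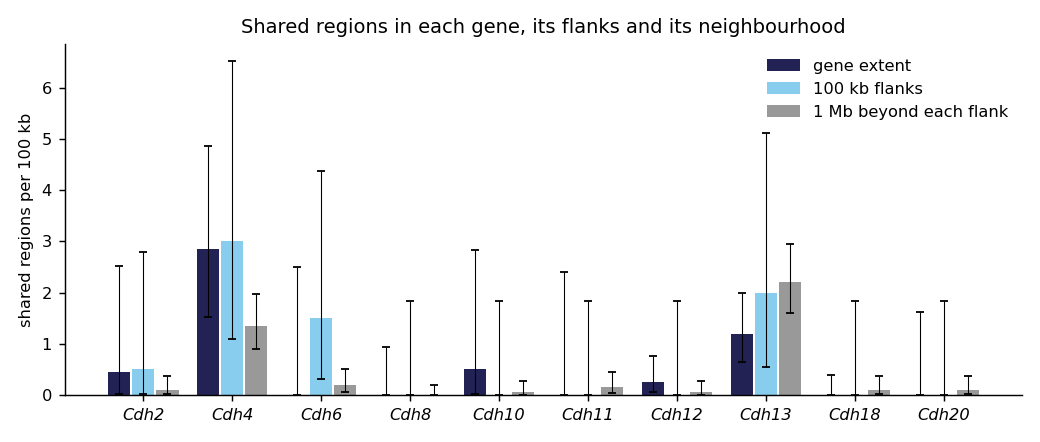
Shared regions per 100 kb in each gene, in its 100 kb flanks and in the 1 Mb beyond each flank, with bars from 0 and 95% exact Poisson intervals. The neighbourhoods of *Cdh4* and *Cdh13* reach 1.35 and 2.2 per 100 kb, against at most 0.200 for the other members.

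The local background of the peak caller was also compared between the genes. It is that of the same library, so it is not independent of the peaks nearby. Background, in fragments, was taken as raised where it was more than 1.1 times the lowest in its library, which was 0.387 in replicate 1 and 1.1 in replicate 2. It was raised at 29 of the 29 replicate 1 peaks and 55 of the 57 replicate 2 peaks of *Cdh4*. At *Cdh13* it was raised at 22 of 31 and 60 of 83 peaks. At the other 8 genes it was raised at 1 of 15 and 0 of 29 peaks, against 64.3% of all replicate 1 peaks and 57.8% of all replicate 2 peaks. Raised background was therefore found at most peaks of *Cdh4* and *Cdh13* and at nearly none of the other members in both libraries, and its part in the number of shared regions was not tested.

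Long genes give peaks more room, so the members of at least 400 kb were set beside all 351 protein-coding genes of that length. Counted inside the gene, *Cdh4* had 2.84 shared regions per 100 kb, and 0.285% of the 351 genes, which is *Cdh4* alone, had as many or more. *Cdh13* had 1.18, and 10.5% of the 351 genes had as many or more. *Cdh12* had 0.261, close to the median of 0.230 over the 351 genes, and *Cdh18* was one of 89 genes with 0. The rates of *Cdh4* and *Cdh13* were what the genes were chosen for, and nothing further is read from these shares. By the size of the difference in this rate, the genes most like *Cdh4* were *Pard3* (2.73), *Rbfox3* (2.37) and *St6galnac3* (2.28). Those most like *Cdh13* were *Fstl4* (1.17), *Atxn1* (1.20) and *Elmo1* (1.16).

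**Figure D5:**
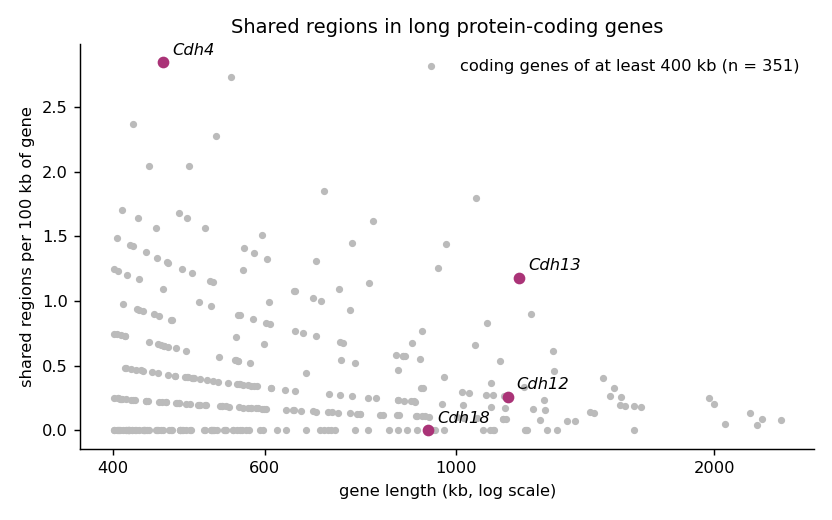
Shared regions per 100 kb of gene against gene length on a log scale for the 351 protein-coding genes of at least 400 kb, with the 4 cadherin members of that length in purple. *Cdh4* is the highest point at 2.84, *Cdh13* lies at 1.18, *Cdh12* at 0.261 and *Cdh18* at 0.

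Other cadherin genes and the catenins completed the family. Of 13 further cadherin genes, 8 had a shared region in their window, and together they had 32, or 0.837 per 100 kb. As for the members, the number of genes with a region was near the 60.3% of all protein-coding genes. *Cdh23*, a cadherin of the hair cell tip link, had 12 shared regions, 9 of them inside its 394 kb, which gave 2.29 per 100 kb of gene. *Cdh17* had 5, *Cdh5* (VE-cadherin of endothelium), *Cdh22* and *Cdh26* had 4 each, and *Cdh3* (P-cadherin), *Cdh16* and *Cdh24* had 1 each. *Cdh1* (E-cadherin), *Cdh7*, *Cdh9*, *Cdh15* and *Cdh19* had 0. Per 100 kb of window this was 2.02 for *Cdh23*, 1.92 for *Cdh17*, 1.65 for *Cdh5* and 1.56 for *Cdh26*, on 4 to 12 regions each. As values these lie between the 1.30 of *Cdh13* and the 2.89 of *Cdh4*, and the differences were not tested. The windows of *Cdh1* and *Cdh3* overlap in part, though the 32 regions were distinct. The *Cdh26* window lies mostly in the 1 Mb beyond the low-coordinate flank of *Cdh4*, so those counts are not separate. Of the 7 catenins, 5 had a shared region in their window, against the same 60.3%, with 18 in all, or 0.347 per 100 kb. *Ctnnb1*, the gene of beta-catenin, had 5 in its window, or 2.2 per 100 kb, and 0 inside the gene. The very long *Ctnna2* and *Ctnna3*, which encode alpha-catenins, had 2 and 4, and *Ctnnd2* had 4, all inside the gene. *Jup*, which encodes plakoglobin, had 3, and *Ctnna1* and *Ctnnd1* had 0.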

How the data were processed

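DLX2 CUT&Tag peaks were analysed for 2 wildtype E12.5 replicates, numbered in the order of their sample records. Per the labels, the submitters' processing notes name Trim Galore 0.4.5, Bowtie 1.1.2, MACS2 2.2.7 and mm10; the methods of the study give other versions of the trimmer and of the aligner. The labels also describe sonicated chromatin, whereas the methods describe tagging by transposase. Peak calling settings are not given in the sources used here. The deposited lists hold, for each peak of each replicate called alone, a fold enrichment (a ratio to the local background), −log10 p and −log10 q, and a score that is the whole part of 10 times the deposited −log10 q. The lists stop at a q of 0.1 and give no read totals, so the depth is unknown. Fragments and background at each summit were inferred from fold and −log10 p, taking fold as (fragments + 1) over (background + 1) and p as a Poisson upper tail; 100% of peaks gave a whole number within 0.001. Peaks on few fragments are less certain.

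Members and lists were chosen with earlier results of these data known. Named were all members, every shared region inside *Cdh4* and *Cdh13*, the region of highest lower fold of each other member, listed cadherins and catenins, and the 3 coding genes of at least 400 kb nearest in rate to *Cdh4* and to *Cdh13*. Genes were RefSeq extents of GRCm38.p6 starting at or after position 3000000 on chromosomes 1 to 19, X and Y. No test was run. Overlap and inference were checked on simulated lists, and bedtools 2.31.1 gave the same 10921 shared regions. Scripts ran in Python 3.11.15 with scipy 1.17.1, pandas 2.3.3, numpy 2.4.6 and matplotlib 3.10.9. Alternatives were other peak filters, overlaps and windows and each replicate alone. Sequence inside peaks was not analysed here.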

Additional observations from a re-analysis of the deposited data

How the results depend on the processing

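Of 48 alternative values, 29 stayed within 1.5 times the reported count or within the interval of the reported share, and 19 did not. *Cdh4* and *Cdh13* together held from 75 to 84.4% of the counted regions or peaks in each of the 9 settings, while their order by number changed. Both genes were chosen by counts from these same lists, so this share is a description and no independent support. *Cdh13* is the longer gene, and the order per 100 kb was not worked out for every setting. At a −log10 q of at least 5, *Cdh6* kept 2 shared regions in its window of 348 kb. *Cdh13* kept 6 in its window of 1385 kb, so in that setting it did not rank above *Cdh6* per 100 kb. These counts are small.

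Keeping only peaks with −log10 q from 5 upwards left 13 shared regions in the 10 windows, 4 at *Cdh4* and 6 at *Cdh13*, and the shares met were 81.3% of replicate 1 peaks and 43.3% of replicate 2 peaks. At a fold of at least 5 there were 20, with 5 at *Cdh4* and 10 at *Cdh13*, and 48.8% of replicate 2 peaks were met. With 50% of each peak shared there were 25, with 8 at *Cdh4*, and the shares met were 33.3% and 14.8%. These filters and overlaps admit fewer regions by construction. *Cdh13* then had more regions than *Cdh4*, 12 against 8 in the last setting. Counting all peaks of 1 replicate, the windows held from 75 to 169 peaks, *Cdh4* from 29 to 57 and *Cdh13* from 31 to 83.

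The limits of depth lie in the few fragments per peak, and with 2 replicates and no control library, sites bound by DLX2 and background common to both libraries cannot be told apart. No paired analysis was possible because the samples form 1 group.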
